A study of Saccharomyces cerevisiae with 41 samples.

Results

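Nucleotides C1420 to A1631 of the yeast 18S rRNA close the 3' major domain, the part of the molecule that folds into the head of the small ribosomal subunit. They were taken by position from a table of 1800 nucleotides, which gave 212. The stretch holds the 3' strands of helices h34, h32, h30 and h29, the complete hairpins h41, h42 and h43, and the 3' strand of h28, the neck that joins head and body. The linker between h42 and h29 carries G1575, methylated on its base by Bud23 with Trm112, in the ridge that separates the P from the E site. Cytoplasmic maturation of the particle ends when the nuclease Nob1 cuts the 20S pre-rRNA to 18S rRNA.

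The 41 samples were Saccharomyces cerevisiae BY4741 strains, each with a tagged protein through which particles were immunoprecipitated, and reverse transcription drop-off was read on the purified rRNA. 1M7 acylates the ribose 2'-hydroxyl of flexible nucleotides, and reverse transcriptase stops there. With 1M7 the late purifications were Nob1 (nob1-TAP, 2 samples), Rio1 (rio1-HTP, 3), 80S-like (fun12-TAP with GAL::3HA-fap7, 2) and 80S (fun12-TAP, 3), and the mid-early ones were Enp1 (enp1-HTP, 2), Ltv1 (ltv1-HTP, 2), Rio2 (rio2-HTP, 2) and Tsr1 (tsr1-HTP, 3). The labels give 18S rRNA for 80S and 20S pre-rRNA for the other 7. The second acylating reagent, NAI, was used on 80S (2 samples), Rio1 (1) and Tsr1 (2), and DMS, which methylates unpaired adenines and cytosines, on 80S (3). Untreated RNA came as late controls (18S, 3 samples: 1 of the nob1-TAP and 2 of the fun12-TAP strain), 80S in DMSO (18S, 2), the control of the DMS set (18S, 3), mid-early controls (20S, 4: 1 each of the enp1, ltv1, tsr1 and rio2 strains) and Tsr1 in DMSO (20S, 2). Strains grew in glucose or in galactose with raffinose, and the labels do not say which strain grew in which. Enp1 and Ltv1 bind the beak of the head, Rio2 and Rio1 are kinases of the pre-40S particle, Tsr1 is a GTPase-like factor, Nob1 is the nuclease that makes the 18S 3' end, Fun12 is the initiation factor eIF5B and Fap7 an ATPase needed for that last cut.

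The values were 17 columns of the authors' mean rates, 12 treated and 5 untreated, so a column has no SD of its own and its depth is unknown. The SDs below are the spread between the 4 purifications of a stage. For each treated column the untreated rate of its stage or reagent set was subtracted. The result was expressed as a multiple of that column's own high values, which is called reactivity here. These high values are the average over the 8% of stops that follow the top 2%. A reactivity of 0 means no more stops than in untreated RNA, and 1 is the level of the strongly reactive nucleotides of the whole molecule. The divisor was smallest in 80S (0.0213) and largest among the 1M7 columns in Rio1 (0.0392), so that a given departure from the control weighs more in 80S. 80S stood apart from the other late columns. Over the 212 nucleotides it had r = -0.0275 to 0.0824 with Nob1, Rio1 and 80S-like, although all 4 share a control, while those 3 had r = 0.631 to 0.777 among themselves and the mid-early columns 0.668 to 0.917. With columns of the other control, 80S had r = 0.704 with Tsr1 and 0.610 with Enp1. These values describe the columns, nucleotides are not independent replicates, and whether a shared preparation or run lies behind them was not tested.

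The sequence is shown by segment so that the reactive places can be seen in their helices. It is written 5' to 3' from the deposited table, with U for T, and capitals mark stops whose mean reactivity over the 8 columns of 1M7 was 0.3 or more, 20 in all.
3' strand of h34, C1420 to U1450: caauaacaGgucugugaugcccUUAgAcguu
3' strands of h32 and h30, C1451 to U1468: cugggccgcaCgcgcgcu
h41, A1469 to C1537: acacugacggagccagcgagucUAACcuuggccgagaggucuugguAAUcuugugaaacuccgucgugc
h42, U1538 to G1574: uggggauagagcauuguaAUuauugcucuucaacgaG
h42 to h29 linker and 3' strand of h29, G1575 to A1586: gaAuuccuagua
h43, A1587 to U1609: agcgcaagUcAucagcuugcguu
h43 to h28 linker, G1610 to C1620: gauuacguccc
3' strand of h28, U1621 to A1631: ugcccuuuguA

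The strands named were checked for complementarity in the same sequence. All 7 bases of C1451 to C1457 could pair with G1212 to G1218, which is h32, and all 7 of U1621 to U1627 with A1151 to A1157, which is the neck h28. In h41 the outer stem pairs U1473 to G1480 with C1527 to G1534, and in h43 the stem pairs A1587 to U1595 with G1601 to U1609. The table names no genome build, so no chromosomal coordinates are given.

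A listed position is the stop, and the modified nucleotide lies 1 base 5' of it. DMS shows this here: of 25 stops with a DMS reactivity of 0.3 or more, the base before it was adenine at 17 and cytosine at 5, while the listed base itself was adenine at 8 and cytosine at 5. Positions below name the stop.

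Taken as 1 stretch, C1420 to A1631 held a smaller share of stops at 0.3 or more than the molecule as a whole. The share of stops at 0.3 or more was 6.60% to 15.1% over the 12 treated columns, against 11.8% to 17.8% for the whole 18S, and it was lower than that of the whole in 12 of 12 columns. The median reactivity was lower than that of the whole in most columns and higher in 4 of the 12. Against h28 to h34 the share at 0.3 was higher in 5 of the 12. Segments of the stretch differed: the 3' strand of h34 had 38.7% in Rio1 (whole 18S 16.7%) and 6.45% in 80S (whole 18S 16.5%). Only 38 of the 212 nucleotides (17.9%) had a mean 1M7 reactivity of at least 0.1 and entered the test below. Over the molecule 504 of 1799 did, and the share was 28.6% in h28 to h34, 25.8% in h35 to h40 and 33.1% in h44 and h45. The 174 others did not pass the filter and are not covered by the stage test. In the linker between h43 and the neck 0 of 11 nucleotides passed, and in the 3' strands of h32 and h30 1 of 18 did.

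Reactive stops were more frequent at nucleotides predicted to be unpaired, though most such nucleotides were not reactive. A minimum-energy fold of h41, h42 and h43, each by itself, left 45 of 129 nucleotides unpaired. By the nucleotide 5' of the stop, 9 of the 45 unpaired (20.0%) and 3 of the 84 paired (3.57%) had a mean reactivity of 0.3 or more. The fold is a prediction from sequence alone, and these counts have no test. In h41 the predicted stem gcgag at G1484 to G1488 with cuugu at C1518 to U1522 is followed by an internal loop, nucleotides U1489 to A1492 on 1 side and A1515 to U1517 on the other. The stops U1491, A1492 and A1493 report C1490, U1491 and A1492 on the first side of that loop. A1516 and U1517 report A1515 and A1516 on the second. C1494 and A1515 report A1493 and U1514, which the fold pairs with each other beside the loop. The tip of h41, ggcc at G1498 to C1501 with gguc at G1506 to C1509, had 0 capitals. The same held for its apical loop gaga, G1502 to A1505, and for the predicted loop gaaa, G1523 to A1526.

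**Figure D1:**
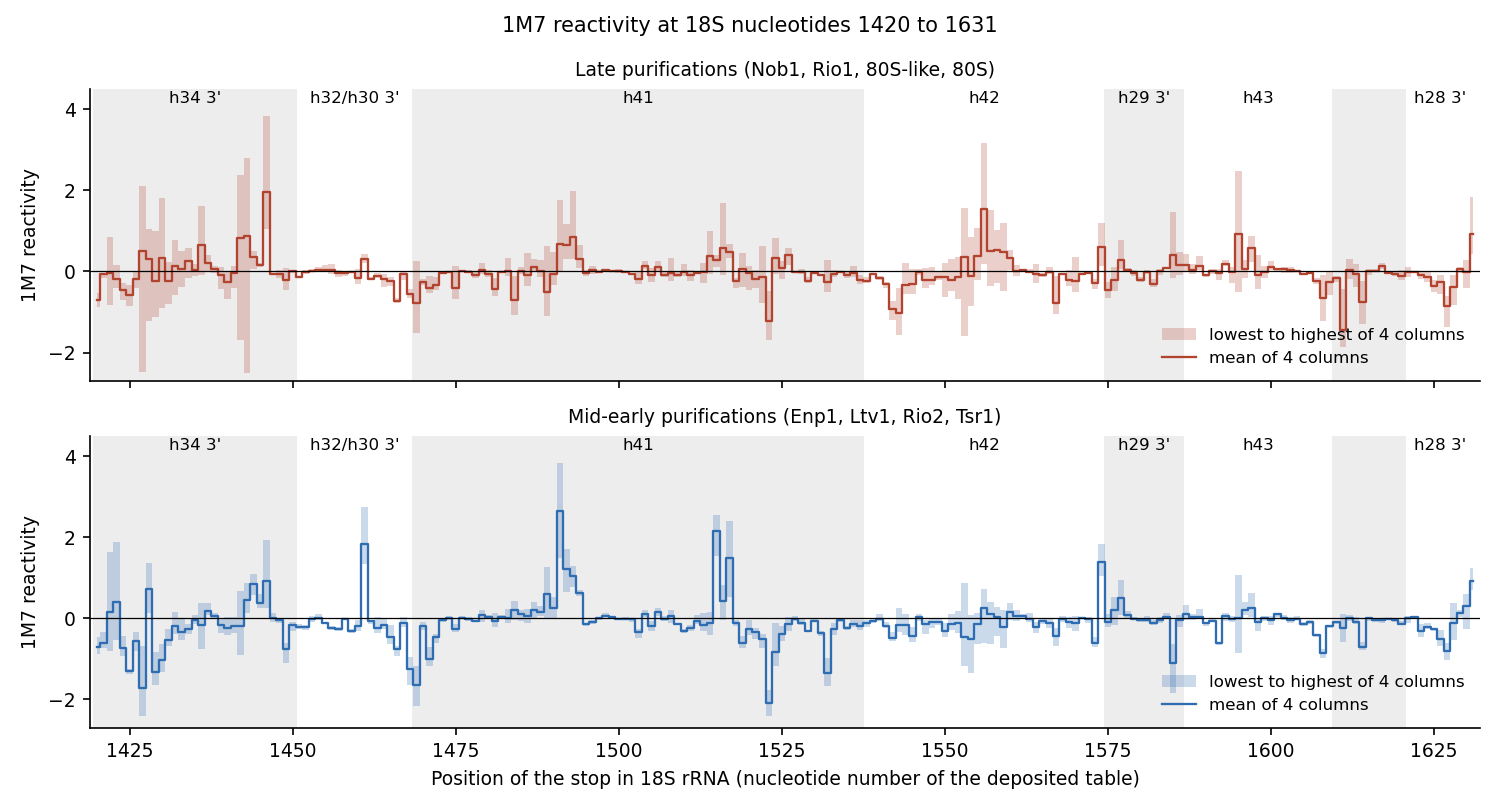
Reactivity to 1M7 (vertical axis, scaled rate difference) against the position of the stop in 18S rRNA, with the 4 late columns above and the 4 mid-early columns below. Lines are means of 4 columns and bands run from the lowest to the highest. The peaks at C1461 and A1515 stand in the mid-early panel (means of 1.83 and 2.16) and are much lower in the late panel (0.309 and 0.291).

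U1491 had the highest mean 1M7 reactivity of the 212 nucleotides (1.66). It gave 0.889 in Nob1, -0.000969 in Rio1, 0.0395 in 80S-like and 1.76 in 80S, against 3.83 in Enp1, 1.70 in Ltv1, 1.48 in Rio2 and 3.57 in Tsr1. Enp1 and Tsr1 were the highest, Rio1 and 80S-like were at their control, and the stages overlapped through 80S. The log2 difference between late and mid-early columns was -2.66 (SE 0.89), with an adjusted p of 0.12 in limma. Without 80S, U1491 passed the threshold.

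The next stops along the same strand were less variable. A1492 averaged 0.658 ± 0.418 in late and 1.21 ± 0.43 in mid-early purifications (SD, n = 4 each), A1493 0.859 ± 0.774 and 1.04 ± 0.26, and C1494 0.317 ± 0.256 and 0.620 ± 0.075. None of the 3 passed the test. In each of them Rio1 or 80S-like was the lowest of the late columns, and 80S was the highest. On the opposite strand U1517 gave 0.470 in Nob1, 0.335 in Rio1, 0.420 in 80S-like and 0.674 in 80S, against 2.41 in Enp1, 0.776 in Ltv1, 0.525 in Rio2 and 2.28 in Tsr1. Enp1 and Tsr1 again stood above the other 6 columns (log2 difference -1.26, SE 0.58, limma adjusted p = 0.25).

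The comparison of late with mid-early purifications asks where the rRNA of the pre-40S particle changes flexibility as the particle matures. In this stretch 3 of 38 tested nucleotides passed the threshold, 2 lower and 1 higher in late particles, and without the filter on low values the higher one was not called. Of all 504 tested, 6.15% did, 3.57% lower and 2.58% higher, so the count here was close to that of the molecule. No nucleotide of the stretch was called without Enp1 or without Tsr1, where 0.982% and 0.947% were called over the molecule. Without 80S, 11 of 37 were called here, against 23.1% over the molecule. The median log2 difference was -0.04 over the 38, with 19 of them positive and 19 negative, against -0.29 over the 504. The late columns share 1 control and so do the mid-early ones, and the p-values do not cover the error of those controls. By the labels the late control is 18S rRNA, while Nob1, Rio1 and 80S-like carry 20S pre-rRNA. Differences between untreated 18S and 20S therefore enter the late values of these columns.

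A1515 is a stop on the 3' strand of h41, at the edge of the internal loop. It is shown as the capital in its surroundings, A1505 to A1525.
A1515: aggucuugguAaucuugugaa
It gave 0.356 in Nob1, 0.275 in Rio1, 0.117 in 80S-like and 0.415 in 80S, against 2.46 in Enp1, 1.54 in Ltv1, 2.09 in Rio2 and 2.56 in Tsr1. It reports U1514, which the fold pairs with A1493 beside the loop. All 4 late columns lay below all 4 mid-early ones, with means of 0.291 ± 0.129 and 2.16 ± 0.46 (SD, n = 4 each). The log2 difference was -2.58 (SE 0.48), and the limma adjusted p was 0.017. The treated rates were 0.0202, 0.0171, 0.0105 and 0.0152 in Nob1, Rio1, 80S-like and 80S, against 0.0868, 0.0592, 0.0745 and 0.0764 in Enp1, Ltv1, Rio2 and Tsr1. The untreated rate was low on both sides, 0.00632 in the late and 0.00809 in the mid-early control. Without Enp1 the adjusted p was 0.082 and without Tsr1 0.090, at log2 differences of -2.51 and -2.49.

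C1461 reports A1460 in the segment of h32 and h30, helices of the head, and is shown in C1451 to A1471.
C1461: cugggccgcaCgcgcgcuaca
It gave 0.325 in Nob1, 0.198 in Rio1, 0.294 in 80S-like and 0.419 in 80S, against 1.34 in Enp1, 1.58 in Ltv1, 2.75 in Rio2 and 1.65 in Tsr1. The stages did not overlap, with means of 0.309 ± 0.091 in late and 1.83 ± 0.63 in mid-early columns (SD, n = 4 each; log2 difference -2.22, SE 0.47, limma adjusted p = 0.024). It was the only stop of the 18 nucleotides of this segment to pass the filter on low values. The untreated rates were 0.0072 in the late and 0.00835 in the mid-early control. Without any 1 of the columns other than 80S it was no longer called, with adjusted p from 0.054 (without Nob1) to 0.11 (without Tsr1) and log2 differences from -2.34 to -2.01.

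A1526 was higher in late particles and passed the test only with the filter on low values in place, which it passed through the late columns. It ends the predicted internal loop gaaa on the 3' side of h41, and mid-early particles were at or below the control there.
A1526: aucuugugaaAcuccgucgug
It gave 0.345 in Nob1, 0.589 in Rio1, 0.499 in 80S-like and 0.147 in 80S, against -0.232 in Enp1, -0.082 in Ltv1, 0.034 in Rio2 and -0.317 in Tsr1. The stages did not overlap (0.395 ± 0.194 in late and -0.149 ± 0.156 in mid-early columns, SD, n = 4 each), but 3 of the 4 mid-early values lay below their control and so at the floor of the log2 scale. The log2 difference was 2.10 (SE 0.48, limma adjusted p = 0.031), and without the filter the adjusted p was 0.070. The untreated rate was 0.0404 in the late and 0.0391 in the mid-early control. From the treated rates without subtraction the log2 difference was 0.39 (limma adjusted p = 0.23). The adjusted p was 0.12 without Enp1, 0.087 without Ltv1, 0.080 without Rio2 and 0.12 without Tsr1, and without Nob1, Rio1 or 80S-like its mean fell under the filter, so that it was not tested.

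**Figure D2:**
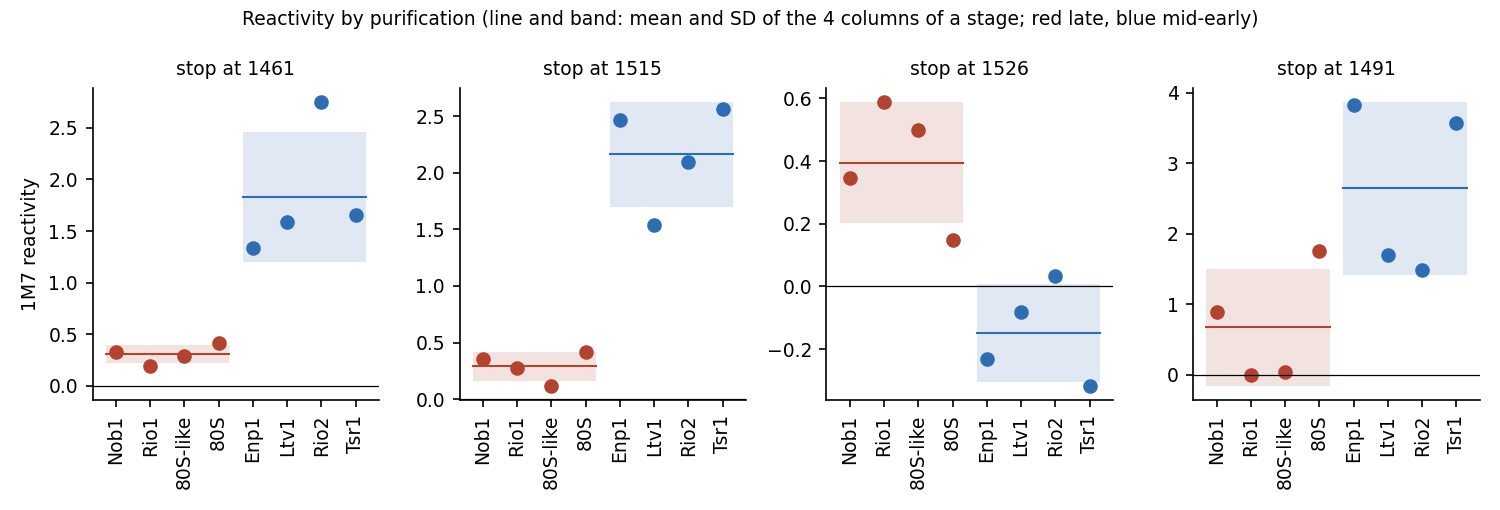
Reactivity to 1M7 (vertical axis) in each of the 8 purifications, late in red at the left and mid-early in blue at the right of each panel, for the 3 stops past the threshold and for the stop with the highest mean, U1491. Lines and bands are the mean and SD of 4 columns; the stages are apart at C1461, A1515 and A1526 and overlap at U1491, where 80S (1.76) lies above Ltv1 and Rio2.

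The stages did not overlap at 6 of the 38 tested nucleotides, 2 higher and 4 lower in late columns, which is 15.8% against 13.7% of the 504 (3.57% higher and 10.1% lower). Without the filter it was 41 of the 212, 28 higher (13.2%) and 13 lower (6.13%) in late columns, against 16.3% of 1799 (7.73% higher and 8.56% lower). Higher values in late columns thus prevailed among the 41 and lower ones among the 6, and those added had mean reactivities under 0.1. Some of the higher ones lay below their control in both stages. A1425, named after its values were seen, averaged -0.590 in late and -1.29 in mid-early columns. Beside the 3 named, the 6 were A1444, G1445 and A1593, which were chosen after their values were seen and did not pass the test. A1444 and G1445, neighbours in the 3' strand of h34, averaged 0.355 ± 0.210 and 0.163 ± 0.039 in late columns, against 0.856 ± 0.235 and 0.376 ± 0.164 in mid-early ones (SD, n = 4 each; limma adjusted p = 0.28 and 0.37). A1593 in the stem of h43 was low throughout, 0.189 ± 0.064 in late and 0.048 ± 0.086 in mid-early columns (limma adjusted p = 0.31).

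A1446 in the 3' strand of h34 had the second highest mean 1M7 reactivity (1.44). It gave 1.06 in Nob1, 1.73 in Rio1, 1.24 in 80S-like and 3.83 in 80S, against 0.262 in Enp1, 0.651 in Ltv1, 0.826 in Rio2 and 1.93 in Tsr1. Tsr1 lay above 3 of the late columns, and the test was not passed (log2 difference 1.11, SE 0.60, limma adjusted p = 0.31).

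Mature 80S stood apart from the other late columns at stops of several segments, with the 3' strand of h34, h41, h42 and h43 among them. h34 lies near the decoding site. U1443 there gave 1.83 in Nob1, 1.36 in Rio1 and 2.80 in 80S-like, but -2.51 in 80S, against 0.659 in Enp1, 0.864 in Ltv1, 0.127 in Rio2 and 0.146 in Tsr1. U1442 gave 1.46, 1.13 and 2.38 in the first 3 of these and -1.68 in 80S, against -0.910, 0.680, 0.083 and -0.574 in the 4 mid-early columns. The 3 late purifications with 20S pre-rRNA were thus the highest of the 8 at both stops and 80S was the lowest. The value of 80S at U1443 depends on the control. Its treated rate was 0.0766, against untreated 18S rates of 0.130 (late control), 0.0704 (80S in DMSO) and 0.104 (control of the DMS set). At U1442 the treated rate of 80S (0.0335) lay below each of these controls (0.0694, 0.0491 and 0.0570). Without 80S, 11 of 37 tested nucleotides passed the threshold, 7 higher and 4 lower in the 3 remaining late columns, among them all 3 named above. Over the molecule the share without 80S was 23.1%, so this count too was near that of all nucleotides. U1442, U1443, U1491 and G1574 were among the 11, as were, named after their values were seen, A1436, A1555, U1558 and A1559.

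In the apical loop of h42, A1556 and U1557 had their highest values in Rio1 and 80S-like, with no test passed. h42 carries uuguaauuau between gagca at G1546 to A1550 and ugcuc at U1561 to C1565. Within it the fold pairs U1552 with A1559 and G1553 with U1558, and U1554 to U1557 form the apical loop. A1556 gave 0.178 in Nob1, 1.74 in Rio1, 3.16 in 80S-like and 1.07 in 80S, against 0.373 in Enp1, 0.554 in Ltv1, -0.600 in Rio2 and 0.722 in Tsr1. The spread within the late stage (1.54 ± 1.26, against 0.262 ± 0.592 in mid-early; SD, n = 4 each) was close to the difference between the stages, and A1556 did not pass (log2 difference 1.57, SE 0.87, limma adjusted p = 0.31). With 1 common control subtracted from all 8 columns A1556 was called. U1557 beside it gave 0.169, 0.704, 1.51 and -0.368 in the late columns in the same order, against 0.258, 0.370, -0.620 and 0.396. Stops at the predicted pairs below that loop did not share this. G1553 gave 1.06 in Nob1, 0.359 in Rio1, 1.57 in 80S-like and -1.58 in 80S, against -1.02, 0.881, -0.493 and -1.17. U1552 gave 0.350, -0.323, 0.130 and -0.685, against -0.370, 0.079, 0.176 and -0.361.

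G1574 is the stop at the foot of h42, next to the methylated G1575. It gave 0.890 in Nob1, 0.172 in Rio1, 0.131 in 80S-like and 1.19 in 80S, against 1.36 in Enp1, 1.04 in Ltv1, 1.82 in Rio2 and 1.30 in Tsr1. The untreated rate there was 0.0033 in the late and 0.00403 in the mid-early control. Rio1 and 80S-like were the low columns, as at U1491, and 80S overlapped the mid-early range (log2 difference -1.45, SE 0.64, limma adjusted p = 0.23). A1577, just 3' of the ridge nucleotides and named after its values were seen, gave 0.783 in 80S and 0.072 to 0.155 in the other late columns, against 0.941 in Enp1, 0.861 in Tsr1, 0.159 in Ltv1 and 0.077 in Rio2. It was high in 80S, Enp1 and Tsr1 alike, across the stages.

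In h43 and the neck few stops were reactive. U1595, the last pair of the h43 stem, was 2.48 in 80S-like and 1.20 in Rio1, 0.487 in Nob1 and -0.506 in 80S, against -0.852 to 1.06 in the mid-early columns. A1631, at the end of h28, was reactive in every purification, from 0.434 in Rio1 to 1.84 in 80S-like among the late ones and from 0.707 in Enp1 to 1.24 in Tsr1 among the mid-early ones. Its stage means were 0.923 ± 0.640 and 0.910 ± 0.239 (SD, n = 4 each), and in limma the adjusted p was 0.88 for a difference of -0.14 on the log2 scale (SE 0.53). The 7 stops of the paired neck strand, U1621 to U1627, all had means under 0.1 and were not tested.

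**Figure D3:**
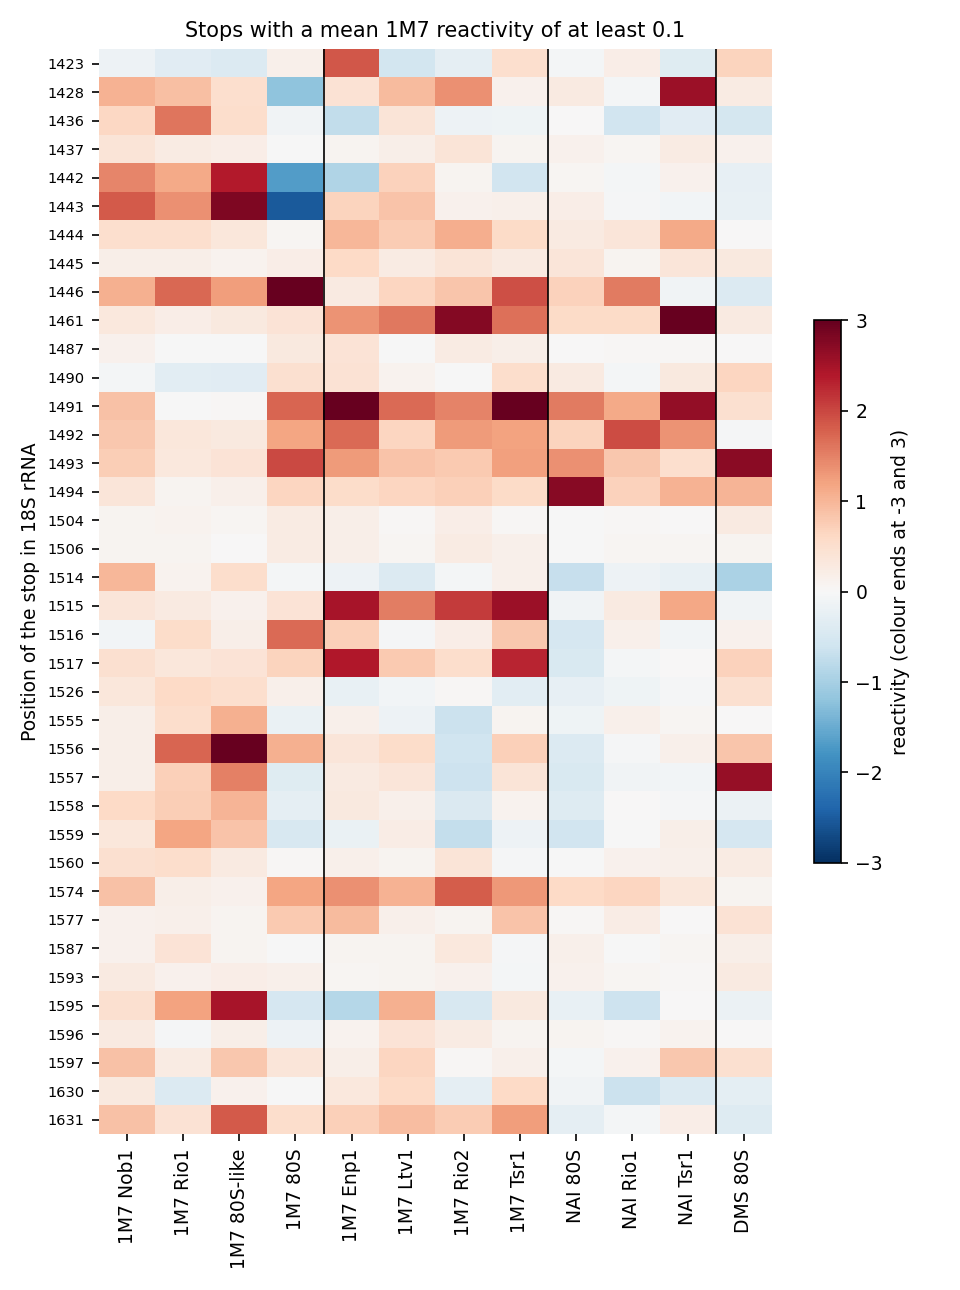
Reactivity (colour, red above and blue below the untreated rate, ending at -3 and 3) of the 38 tested stops (rows, by position) in 12 treated columns, with late 1M7 purifications at the left, then mid-early 1M7, NAI and DMS. The rows U1442 and U1443 are red in Nob1, Rio1 and 80S-like and blue in 80S, and the rows C1461 and A1515 are red in the mid-early block and in NAI on Tsr1.

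Pairs of single columns have no test and are given as differences of 0.5 or more in reactivity. Mature 80S against 80S-like, both caught through Fun12, sets 18S against 20S rRNA in ribosome-like particles. 80S was higher at 24 of 212 nucleotides (11.3%) and lower at 30 (14.2%), against 13.5% and 14.4% over the molecule. The largest rise was at A1446 in h34, 3.83 in 80S and 1.24 in 80S-like. The next were in h41, at U1489 (0.622 in 80S and -1.10 in 80S-like), U1491, A1493 and A1516 (1.69 and 0.181). The largest falls were at U1443, at A1427 (-2.49 in 80S and 1.66 in 80S-like), at U1442, at G1553 and at U1595 in h43. The treated rate at A1446 was 0.136 in 80S and 0.0995 in 80S-like over an untreated rate of 0.0548. At A1427 the treated rate in 80S (0.0906) lay below the untreated rate (0.144), and in 80S-like (0.204) above it.

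Nob1 against Rio2 spans the step from mid-early to late particles that carry 20S pre-rRNA. Nob1 was higher at 29 nucleotides (13.7%) and lower at 9 (4.25%), against 11.6% and 8.78% over the molecule. A1427 had the largest rise, 2.11 in Nob1 and -1.47 in Rio2, and C1461 and A1515 had the largest falls. Rio1 against Tsr1 was higher at 33 (15.6%) and lower at 23 (10.8%), against 14.6% and 12.2%. The largest rises lay around the methylated G1428 of h34, with A1427 at 0.703 in Rio1 and -2.40 in Tsr1, G1429 at 0.999 and -1.64, and U1430 at 1.82 and -1.08, and the largest fall was at U1491. A1524 gave 0.815 in Rio1 and -1.17 in Tsr1. Its treated rate was 0.0625 in Rio1 and 0.0346 in Tsr1, over untreated rates of 0.0305 in the late and 0.0657 in the mid-early control. U1585 was also among the largest rises, 1.48 in Rio1 and -0.903 in Tsr1. Its treated rate was 0.101 in Rio1 and 0.0644 in Tsr1, while the untreated rate was 0.0428 in the late and 0.0885 in the mid-early control.

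With NAI, probed on separate libraries, C1461 and A1515 were again higher in Tsr1 than in 80S and Rio1. C1461 stayed above 0.3 in all of them. C1461 gave 0.566 in 80S and 0.572 in Rio1, against 3.13 in Tsr1, the highest NAI value of the stretch. A1515 gave -0.098 in 80S and 0.274 in Rio1, against 1.17 in Tsr1. The treated rate at C1461 was 0.0292 in 80S and 0.0441 in Rio1, against 0.160 in Tsr1, over untreated rates of 0.00969 in 80S and 0.00889 in Tsr1. A1526, higher in late columns with 1M7, was below its control with NAI in all 3 (-0.242 in 80S, -0.131 in Rio1 and -0.039 in Tsr1). NAI on Rio1 rests on 1 sample and on the control of Tsr1. The NAI columns are means of their samples, 1 column a particle, so that no test was made.

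The stop G1428, which reports A1427, gave 0.273 in 80S and -0.053 in Rio1 with NAI, against 2.58 in Tsr1. The methylated G1428 itself is read at G1429, which lay below its control with NAI in all 3 (-0.879 in 80S, -0.893 in Rio1 and -1.02 in Tsr1). With 1M7 the stop G1428 had another order: 1.05 in Nob1, 0.898 in Rio1, 0.506 in 80S-like and -1.22 in 80S, against 0.439, 0.955, 1.36 and 0.122 in Enp1, Ltv1, Rio2 and Tsr1. U1491 gave 1.56 in 80S and 1.15 in Rio1, against 2.63 in Tsr1. A1492 gave 0.673 in 80S and 1.95 in Rio1, the highest NAI value of Rio1, against 1.35 in Tsr1, and C1494 went the other way, 2.73 in 80S and 0.686 in Rio1, against 1.05 in Tsr1. NAI on 80S was higher than on Tsr1 at 16 nucleotides (7.55%) and lower at 15 (7.08%), against 9.73% and 12.6% over the molecule. NAI on Rio1 was higher than on Tsr1 at 16 (7.55%) and lower at 9 (4.25%), against 6.84% and 7.12%. Its largest rises were at A1573, the stop 3' of G1572 (1.89 in Rio1 and -0.473 in Tsr1), and at U1532 (1.33 and -0.735), and at both the 2 values share the Tsr1 control. C1457 was among the 5 highest of NAI on Rio1 (1.27, against 0.108 in Tsr1), and U1552 among those of NAI on 80S (0.676, against -0.252 in Tsr1). Of the 38 tested nucleotides, 26 were less reactive to NAI in 80S (68.4%, against 57.1% of the 504) and 25 in Rio1 (65.8%, against 64.7%) than in Tsr1.

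DMS on mature 80S reads the base-pairing face of adenines and cytosines. In this stretch 25 of 212 stops (11.8%) reached 0.3, against 14.5% of all stops of the molecule. Of the 25, 12 lay in h41, which is 17.4% of its 69 nucleotides. The strongest were A1493, reporting A1492 (2.72, a rate of 0.128 treated and 0.0288 untreated), and U1557, reporting A1556 (2.62, 0.156 and 0.0603). They are the loop of h41 and the apical loop of h42, shown with the stops of 0.3 or more in capitals, from A1483 to G1499 and from G1546 to U1566.
h41 with DMS: AGcgaGUCUaACcuugg
h42 with DMS: gagcauuguaAUuauugcucu
C1494 (1.01, reporting A1493), A1556 (0.844, reporting A1555) and U1544 (1.00, reporting A1543) followed, with A1422 (1.50, reporting A1421) in h34, G1484 (0.736, reporting A1483) and U1517 (0.682, reporting A1516). Of the stops 3' of an adenine 37.8% reached 0.3, against 45.2% in the whole molecule. U1489 (1.54) has a guanine and U1628 (0.777) a uracil 5' of it, which are not the bases that DMS reads. At A1515 and C1461, DMS gave -0.113 and 0.262 in 80S.

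**Figure D4:**
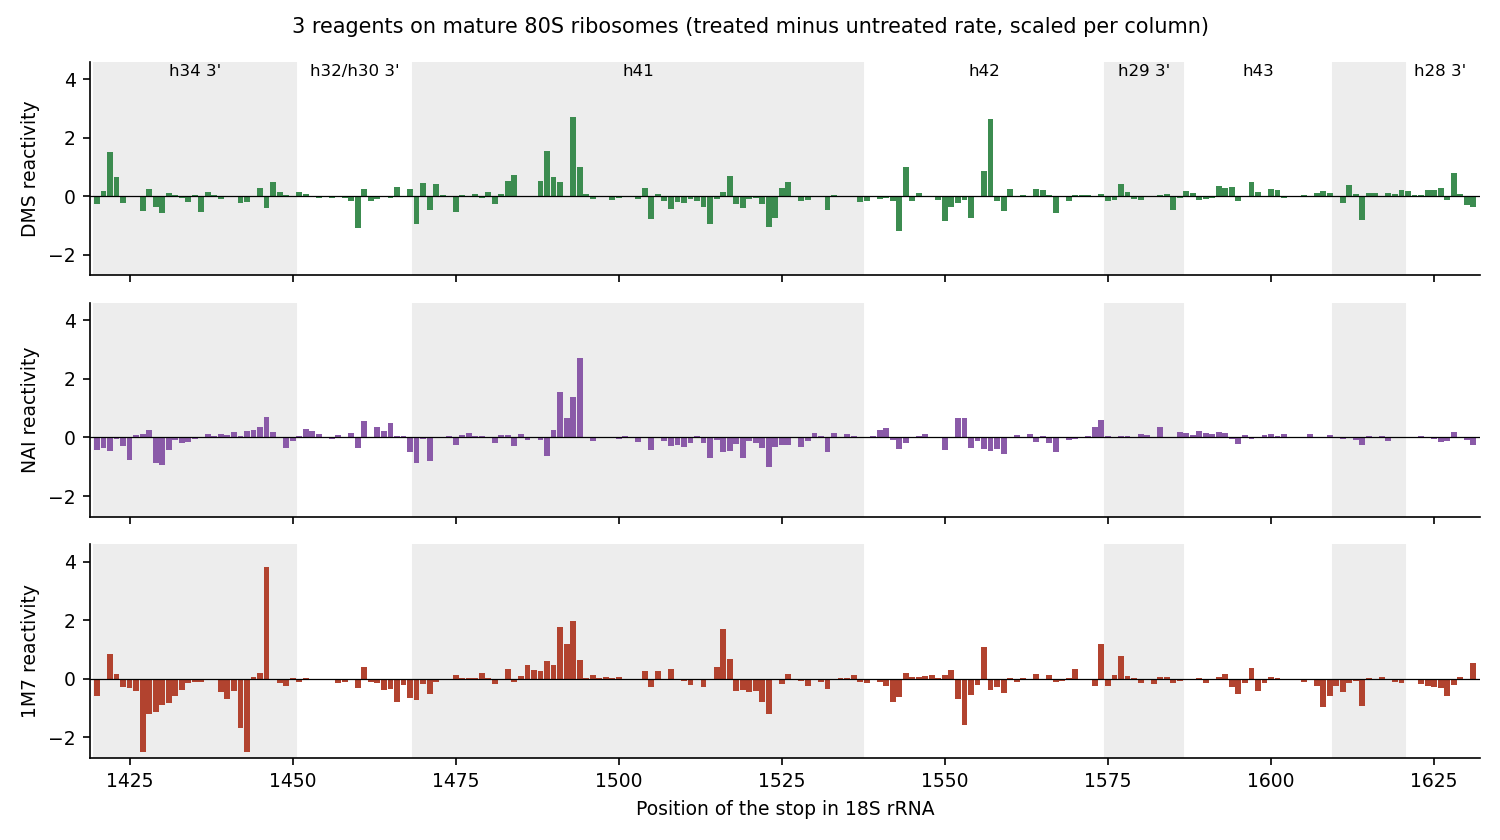
Reactivity on mature 80S ribosomes by position of the stop in 18S rRNA, for DMS (top), NAI (middle) and 1M7 (bottom), each column scaled by its own high values. All 3 reagents exceed 0.3 at U1491, A1493 and C1494 in h41. At U1557 DMS is high (2.62) while NAI and 1M7 lie below 0, and 1M7 peaks at A1446 (3.83), with -2.49 at A1427 and -2.51 at U1443.

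Untreated RNA asks which stops are there without reagent and whether they differ between mature 18S and 20S pre-rRNA. The highest mean rates were at A1427, G1523, U1443, A1469 and U1554. A1427 had 0.144, 0.0885 and 0.113 in the 18S columns (late control, 80S in DMSO, control of the DMS set), against 0.153 and 0.158 in the 20S columns (mid-early control, Tsr1 in DMSO). G1523 had 0.106, 0.120 and 0.0977 in 18S, against 0.121 and 0.174 in 20S. At both the 18S columns lay below the 20S ones. The columns did not overlap at 51 of 212 nucleotides (24.1%), 16 higher and 35 lower in 18S, against 28.6% of the molecule (7.62% higher and 21.0% lower). With 3 columns against 2 no permutation test can pass 0.05.

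The 3 nucleotides listed as modified here are G1428 and G1572, methylated on the ribose, and G1575. They are the capitals in C1420 to A1436 and in C1565 to U1585.
G1428: caauaacaGgucuguga
G1572 and G1575: cuucaacGagGaauuccuagu
At A1573, the stop 3' of G1572, the untreated rate was 0.0222, 0.0304 and 0.0244 in 18S, against 0.0394 and 0.0512 in 20S, without overlap. At G1429, 3' of G1428, it was 0.0427, 0.0863 and 0.0443 in 18S, against 0.0640 and 0.107 in 20S, and the groups overlapped. At A1576, 3' of G1575, it was 0.0246, 0.0179 and 0.0259 in 18S, against 0.0189 and 0.0172 in 20S, again with overlap. None of these 3 stops was among the 5 highest untreated rates. With 1M7, A1573 lay below its control in all 8 columns, -0.426 to -0.176 in late and -0.713 to -0.447 in mid-early ones.

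**Figure D5:**
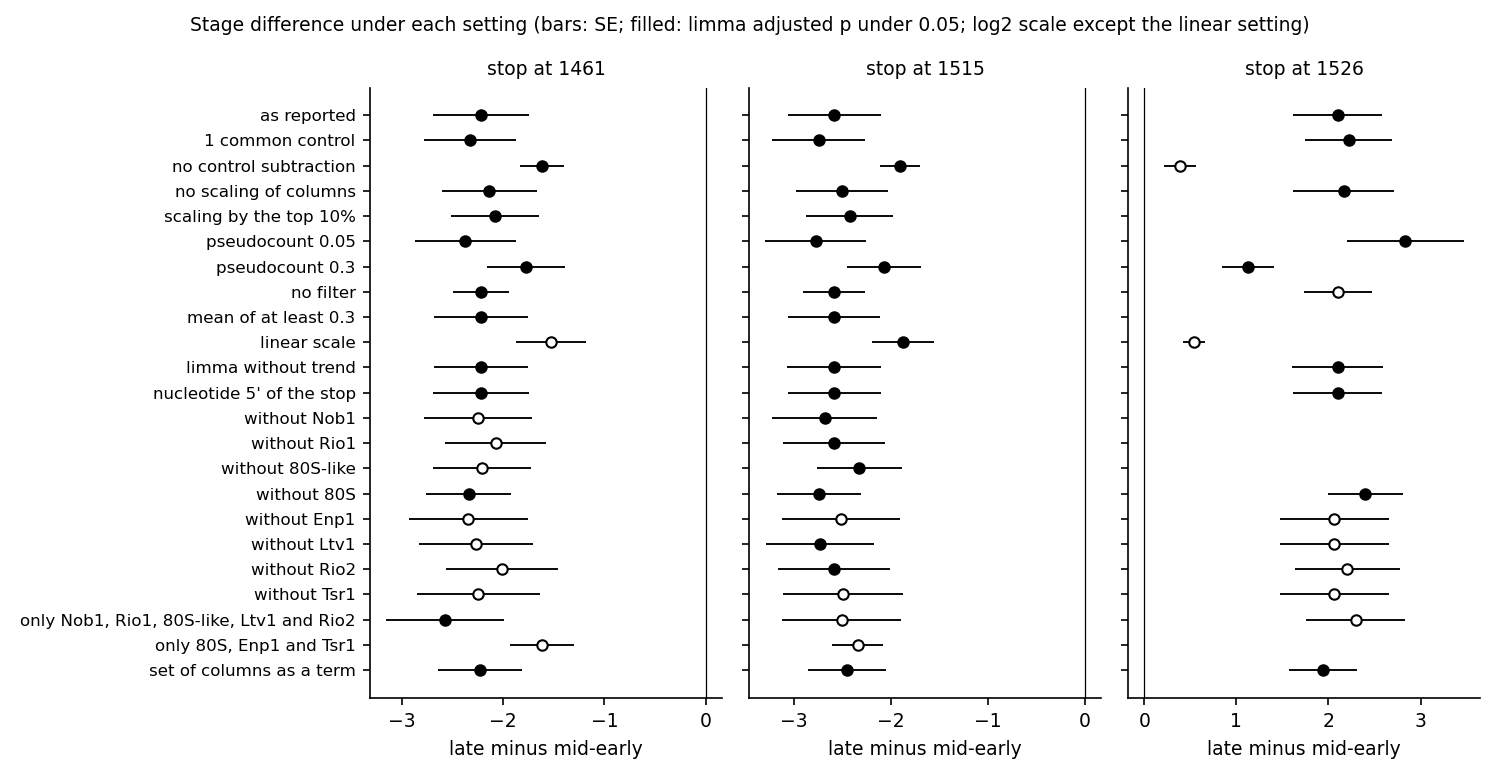
Late minus mid-early difference (horizontal axis, log2 scale except for the linear setting) of the 3 called stops under the reported and each other setting (rows), with SE as bars; filled points passed a limma adjusted p of 0.05. All points keep their sign, and most open points are fits with fewer columns. The linear setting gives -1.52 at C1461, and at A1526 the values run from 0.39 without control subtraction to 2.84 with a pseudocount of 0.05.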

How the data were processed

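The authors deposited drop-off rates as a fraction between 0 and 1 for each nucleotide, averaged over the samples of each of 17 groups, per the file headers. Novoalign 2.07 appears among the tools of the submitters' processing notes. How reads were referenced, rates computed and columns averaged is not given in the sources used here. Nucleotide 1, listed at 1, was left out. The late control was subtracted from Nob1, Rio1, 80S-like and 80S, the mid-early control from the other 4, and Tsr1 in DMSO from NAI on Tsr1 and on Rio1. For Nob1, Rio1 and 80S-like the late control is of the other rRNA species by the labels. Reactivities were floored at 0, and log2(reactivity + 0.1) of 4 late and 4 mid-early columns was compared by limma 3.58.1 (R 4.3.3, mean-variance trend) over all nucleotides with a mean of at least 0.1, with Benjamini-Hochberg adjustment over all of them. The labels do not say whether samples came from separate cultures, so p-values measure only the spread between these columns. Log2 differences understate changes of low values. Segment limits are annotation taken by hand and checked for pairing. The fit was tried on simulated data whose noise was independent between columns. The real columns of a stage share a control, and the simulated data do not cover that. Helices were folded with RNAfold 2.7.2. Members, lists and tests were chosen with earlier results of these data known. Nucleotides that could be named were those past the threshold, the 10 highest with 1M7, the 5 highest with each NAI column, the 10 highest with DMS, the 5 largest differences each way of a pair, the 5 highest untreated rates and the modified sites; others are said to be chosen later. Other backgrounds, scalings, pseudocounts, filters and sets of columns were tried.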

Additional observations from a re-analysis of the deposited data

Results flagged for a closer look

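In 88 groups of 4 columns, a single column stood apart from the other 3 at 4 stops. Chance gives about 1 in 20 groups, here 4.4, so the number found is what chance alone would give. A1543 in h42 gave 0.249 in Tsr1, with the other mid-early columns at -0.336 to -0.253. U1544 next to it gave 0.208 in 80S, with the other late columns at -0.544 to -0.484. U1557 in the loop of h42 gave -0.620 in Rio2, with the other mid-early columns at 0.258 to 0.396. A1611 in the linker before the neck gave -0.438 in 80S, with the other late columns at -1.85 to -1.73. The cause was not tested in any of the 4.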

How the results depend on the processing

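No paired analysis was possible because each column is a mean over the samples of a group and carries no replicate number. Under 22 other settings the count of called nucleotides (3) was 2 to 4 in 12. It was 1 on the linear scale. With 80S, Enp1 and Tsr1 alone it was 0 in limma (8 at an unadjusted p under 0.05), where the single late column is assumed to vary like the others; 0 of 503 nucleotides of the molecule were called there. Leaving out 1 purification gave 0 to 11 calls: 0 without Enp1 or Tsr1 (4 and 6 at an unadjusted p under 0.05), 1 without Nob1, Rio1, 80S-like, Ltv1 or Rio2, and 11 without 80S. Over the molecule the shares called were 0.982% without Enp1, 0.947% without Tsr1 and 23.1% without 80S. They were 2.42%, 1.22%, 1.17%, 2.96% and 2.49% without Nob1, Rio1, 80S-like, Ltv1 and Rio2. Nucleotides whose stages did not overlap numbered 6, but 16 without control subtraction, where 159 nucleotides passed the filter, 41 without the filter (28 higher in late columns; a setting added after seeing the data), and 23 with Nob1, Rio1, 80S-like, Ltv1 and Rio2 alone, a choice made after seeing the data; with 1 purification left out they numbered 5 to 17, with 10 without Ltv1 and 17 without 80S. Shares over the molecule for these counts are given above for the reported setting and without the filter only. With Nob1, Rio1, 80S-like, Ltv1 and Rio2 alone, 2 of 40 were called, against 5.47% over the molecule. They were C1461 (-2.57, limma adjusted p = 0.046) and A1427, higher in late columns and not among the 3. A1515 (-2.51, limma adjusted p = 0.053) and A1526 (2.29, limma adjusted p = 0.052) were not called there. With the set of columns as a term all 3 were called. No direction reversed in these settings; A1526 fell under the filter in 6 of them. Beyond the subtractions and fewer columns named, the cause was not tested. Without depths, no limit from counting can be set.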
